A study of Mus musculus with 2 samples.

Results

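The miR-181 family of the mouse comprises 6 genes in 3 neighbouring pairs: Mir181a-1 with Mir181b-1 on chromosome 1, Mir181a-2 with Mir181b-2 on chromosome 2, and Mir181c with Mir181d on chromosome 8. The members were taken by name from the 2202 annotated miRNA genes in the count tables, without reference to their values, and all 6 were found. The tables come from microRNA sequencing of hippocampus from male mice aged 14 days. The strain was B6CASTF1/J, a first-generation cross of C57BL/6J with CAST/EiJ, and the labels name no treatment and no engineered allele. The series has 1 group of 2 biological replicates, each labelled with 3 males. How their tissue was pooled is not labelled, and the donor identifier is the same for both. SDs therefore measure the spread of these samples only, which may partly reflect technical differences. The p-values of the exact binomial test used below cover counting error and not that spread, and the differences tested may also be partly technical. As there is no second condition, members were compared with each other and between the libraries.

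A miRNA gene is transcribed as a hairpin, from which Drosha and Dicer release a short duplex. One arm of the duplex is loaded into an Argonaute protein and guides it to messenger RNAs that pair with the seed, the bases near the arm's 5′ end. Neighbouring miRNA genes on the same strand can be cut from a shared primary transcript, as miR-181 pairs are thought to be. The family is best known from developing T cells, where miR-181a tunes the sensitivity of antigen receptor signalling, and it is also studied in neurons, where the GluA2 subunit of AMPA receptors is among the reported targets.

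The mature arms are shown first because they decide which reads can be told apart. All printed sequences were taken from RefSeq (GRCm38.p6) and are written 5′ to 3′ with the seed, bases 2 to 8, in capitals. The 6 genes encode 4 different 5p arms, the arms usually regarded as the guides:
miR-181a-5p, from Mir181a-1 and Mir181a-2: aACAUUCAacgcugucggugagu
miR-181b-5p, from Mir181b-1 and Mir181b-2: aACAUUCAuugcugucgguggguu
miR-181c-5p, from Mir181c: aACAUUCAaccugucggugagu
miR-181d-5p, from Mir181d: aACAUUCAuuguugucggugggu

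The seed ACAUUCA was present in the 5p arm of 6 of 6 members and in no mature arm of another gene among the 1018 genes matched to the RefSeq table. Outside the seed the arms differed at few bases, counted from 1 at the 5′ end with the base of the arm named first given first. Between miR-181a-5p and miR-181b-5p the substitutions were A9U, C10U and A21G, besides a difference of 1 base in length. Between miR-181b-5p and miR-181d-5p the only substitution over the shared length was C12U. The arm miR-181c-5p was 1 edit away from miR-181a-5p, being 22 rather than 23 nucleotides long.

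The 3p arms, in contrast, differed between all 6 genes and fell into 4 seeds. They are printed because, unlike the 5p arms, they differ between the a genes and between the b genes:
miR-181a-1-3p: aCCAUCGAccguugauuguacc
miR-181c-3p: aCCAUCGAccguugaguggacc
miR-181a-2-3p: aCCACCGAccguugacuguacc
miR-181b-1-3p: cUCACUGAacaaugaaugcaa
miR-181b-2-3p: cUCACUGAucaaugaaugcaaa
miR-181d-3p: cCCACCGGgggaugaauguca

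The seed CCAUCGA was shared by Mir181a-1 and Mir181c, and UCACUGA by both b genes. The 3p arms of the a genes differed by U5C and U16C, the former within the seed, and those of the b genes by A9U over the shared length. Counts were deposited per gene and therefore pool both arms of a hairpin.

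In mm10 with the GENCODE M21 annotation, Mir181a-1 (ENSMUSG00000065565.1) lies at chr1:137966455-137966541 on the plus strand, 97 nucleotides before Mir181b-1 (ENSMUSG00000065458.1) at chr1:137966639-137966718. Both lie in an intron of the non-coding gene Gm4258 on the same strand. Mir181b-1 also lies in an exon of the lincRNA A430106G13Rik, which Mir181a-1 overlaps by 11 nucleotides. Mir181a-2 (ENSMUSG00000065423.1) lies at chr2:38852735-38852810 and Mir181b-2 (ENSMUSG00000065578.1) at chr2:38853830-38853918, both on the plus strand and 1019 nucleotides apart. They lie opposite an intron of Nr6a1, which encodes an orphan nuclear receptor. The antisense gene Nr6a1os ends 364 nucleotides before Mir181a-2 in GENCODE M21, whereas the RefSeq model spans both miRNA genes. Mir181c (ENSMUSG00000065483.2) lies at chr8:84178873-84178961 and Mir181d (ENSMUSG00000076338.1) at chr8:84178716-84178787, on the minus strand and 85 nucleotides apart. Both are in an intron of Nanos3, which encodes an RNA-binding protein of germ cells, on its strand.

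Replicate 1 had 3793934 counts assigned to miRNA genes out of 13791106 reads, and replicate 2 had 2554997 out of 7239133. Levels are given as counts per 1000000 assigned counts (CPM), as mean ± SD with n = 2, so that 1 count was worth 0.264 CPM in replicate 1 and 0.391 CPM in replicate 2. Detection required at least 2 CPM in both libraries, which 426 genes reached. Reads that mapped to several places, 26.3% of reads in replicate 1 and 37.5% in replicate 2, were assigned to no gene. Of 13 neuronal marker genes 9 were detected, among them Mir128-1 at 5824 ± 2065 CPM, while the 3 Mir124a genes, whose product is abundant in neurons, had at most 12 counts each. Of 5 markers of other organs, the muscle genes Mir1a-1, Mir1a-2, Mir133a-1 and Mir133a-2 were at 0 in both libraries, and the liver gene Mir122 was detected at 20.6 and 29.7 CPM. Any reads of the Mir124a or muscle genes that mapped to several places are missing from these counts. Counts at or near 0 therefore do not show that these miRNAs were absent.

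All 6 miR-181 genes were detected, on the gene's own strand and with 0 counts on the opposite strand. Together they received 32673 counts in replicate 1 and 27263 in replicate 2. The family level was 8612 CPM in replicate 1 and 10671 CPM in replicate 2, or 0.964% ± 0.146 of assigned counts (SD, n = 2). The 95% Wilson interval of that share was 0.852% to 0.871% in replicate 1 and 1.05% to 1.08% in replicate 2. These intervals cover counting error only, since reads copied during amplification are not independent molecules. In bulk tissue, fewer cells of a type and less of the RNA per cell cannot be told apart.

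The locus on chromosome 8 gave most of the family's counts. Mir181d was at 3246 CPM in replicate 1 and 3942 CPM in replicate 2 (3594 ± 492 CPM), and ranked 50 among all miRNA genes. Its neighbour Mir181c was at 2353 and 2479 CPM (2416 ± 89.2 CPM, rank 66). Both were well above the median of 88.3 CPM over detected genes, and their ranges in the 2 libraries did not overlap.

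On chromosome 2 a single gene held nearly all counts. Mir181b-2 was at 2324 CPM in replicate 1 and 3249.7 CPM in replicate 2 (2787 ± 655 CPM, rank 61). Mir181a-2 was at 94.9 and 130.3 CPM (113 ± 25.1 CPM, rank 201), from 360 and 333 counts. Mir181b-2 was thus at a level like that of Mir181c and Mir181d, whereas Mir181a-2 lay near the median of detected genes.

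On chromosome 1 the order of the a and b genes was the opposite. Mir181a-1 was at 572 CPM in replicate 1 and 838 CPM in replicate 2 (705 ± 188 CPM, rank 124). Mir181b-1 was the lowest member at 22.7 and 30.9 CPM (26.8 ± 5.84 CPM, rank 268), from 86 and 79 counts. Its Wilson interval as a share of assigned counts ran from 0.00184% to 0.00280% in replicate 1 and from 0.00248% to 0.00385% in replicate 2, the widest of the members relative to its value.

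**Figure D1:**
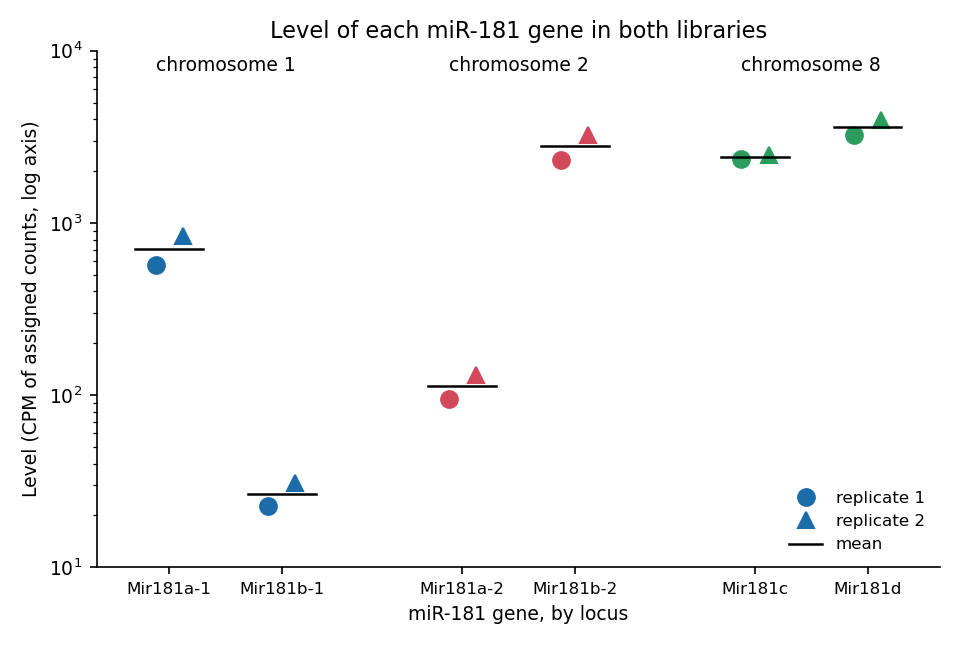
Level of each miR-181 gene in CPM (log axis) in replicate 1 (circles) and replicate 2 (triangles), with the mean as a line, grouped by chromosome. Mir181b-2, Mir181c and Mir181d lie between 2324 and 3942 CPM, Mir181a-1 between 572 and 838 CPM, Mir181a-2 between 94.9 and 130.3 CPM and Mir181b-1 between 22.7 and 30.9 CPM.

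Ordered by mean CPM, the members ran Mir181d, Mir181b-2, Mir181c, Mir181a-1, Mir181a-2 and Mir181b-1. The upper 3 were close to each other. Mir181d was higher than Mir181b-2 in both libraries, but their ranges overlapped, and Mir181b-2 was higher than Mir181c in only 1 of 2 libraries. The lower 3 were separate, since Mir181c stood 3.43-fold above Mir181a-1, Mir181a-1 6.26-fold above Mir181a-2 and Mir181a-2 4.20-fold above Mir181b-1, each with no overlap between ranges. Dividing the mean CPM by hairpin length left the order as it was, from 49.9 CPM per nucleotide for Mir181d to 0.335 CPM per nucleotide for Mir181b-1.

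As shares of the family's counts, Mir181c and Mir181d together held 65.0% in replicate 1 and 60.2% in replicate 2. The chromosome 2 pair held 28.1% and 31.7%, and the chromosome 1 pair 6.90% and 8.14%. The shares differed between libraries beyond counting error at each locus, with Wilson intervals of 64.5% to 65.5% against 59.6% to 60.8% for the chromosome 8 pair. The order of the loci was the same in both libraries. Summed over the loci, the genes of miR-181b were at 2346 and 3281 CPM and those of miR-181a at 667 and 968 CPM. These sums pool both arms and lack reads that mapped to several places. They are therefore not levels of the mature miR-181a and miR-181b arms.

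Within each pair the ratio of the neighbouring genes was measured in each library as a difference of log2(CPM + 0.5). Mir181a-1 exceeded Mir181b-1 by 4.63 in replicate 1 and 4.74 in replicate 2 (4.68 ± 0.08, SD, n = 2). In counts, Mir181a-1 was 25.2-fold higher in replicate 1 and 27.1-fold higher in replicate 2, which is 96.2% and 96.4% of the pair. For Mir181a-2 minus Mir181b-2 the value was -4.61 in replicate 1 and -4.63 in replicate 2 (-4.62 ± 0.02). There Mir181b-2 was 24.5-fold and 24.9-fold higher, and Mir181a-2 held 3.92% and 3.86% of the pair's counts. The 2 loci thus had ratios of like size and opposite sign, the a gene leading on chromosome 1 and the b gene on chromosome 2.

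The chromosome 8 pair was the most even. Mir181c minus Mir181d was -0.46 in replicate 1 and -0.67 in replicate 2 (-0.57 ± 0.15), so that Mir181d was 1.38-fold and 1.59-fold higher. Mir181c held 42.0% of the pair in replicate 1, with a Wilson interval of 41.4% to 42.7%. In replicate 2 its share was 38.6%, with an interval of 37.9% to 39.4%. These intervals did not overlap, so this pair's ratio moved between the libraries by more than counting error, yet Mir181d was the higher gene in both.

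Unequal neighbours were common among other miRNA genes. Pairs were formed from detected miRNA genes that directly follow each other on the same strand within 10 kb. Without the miR-181 genes 107 pairs remained (miR-30 pairs of that distance included). Their median absolute log2 ratio was 2.79 (interquartile range 1.25 to 4.58). More uneven than the chromosome 1 pair were 25 of them (23.4%), and likewise 25 (23.4%) were more uneven than the chromosome 2 pair. The chromosome 8 pair was more even than 95 of the 107 (88.8%). The ratios of the miR-181 pairs moved little between libraries in comparison, by 0.11 on chromosome 1, 0.03 on chromosome 2 and 0.21 on chromosome 8, against a median of 0.55 for the other pairs. A larger change than theirs was seen in 95, 103 and 83 of the 107 pairs, in that order. The other pairs include genes from 2 CPM upwards, whose ratios carry more counting error, and they were not matched for depth. Pairs of 1 cluster share genes, and long runs of genes, from Mir770 to Mir136 and from Mir379 to Mir3072, supply many of the 107. These counts therefore describe the tissue, are weighted towards such clusters and are not independent observations.

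**Figure D2:**
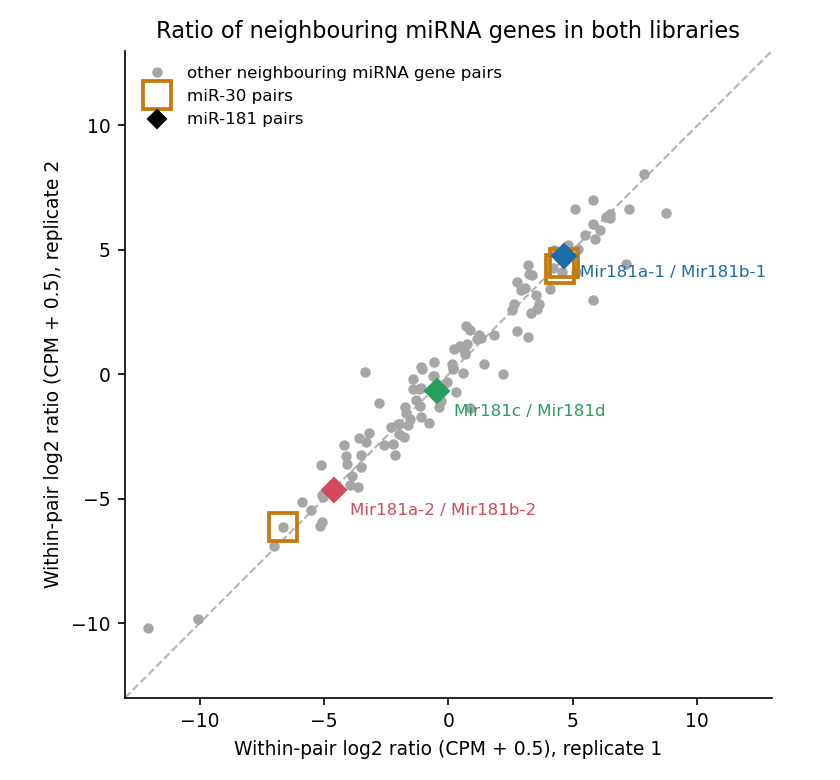
Within-pair log2 ratio of neighbouring miRNA genes (CPM + 0.5) in replicate 1 (x axis) and replicate 2 (y axis), for 107 other pairs (grey), the miR-30 pairs (open squares) and the miR-181 pairs (diamonds), with the line of equality dashed. The chromosome 1 and chromosome 2 pairs of miR-181 lie on opposite sides of 0, near 4.68 and -4.62, and the chromosome 8 pair near -0.57. Some other pairs lie further from 0. Signs of grey pairs follow chromosome position, and those of miR-30 and miR-181 pairs the order named in the text. The side of 0 is therefore not comparable between them, and Mir30e with Mir30c-1 also appears in grey on the opposite side.

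The hairpins of the a and b genes are printed next because counts of genes with an identical arm depend on where their sequences begin to differ. Annotated arms are in capitals, 5p arm before 3p arm:
Mir181a-1: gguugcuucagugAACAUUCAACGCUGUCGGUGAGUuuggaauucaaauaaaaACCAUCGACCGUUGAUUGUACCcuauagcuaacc
Mir181a-2: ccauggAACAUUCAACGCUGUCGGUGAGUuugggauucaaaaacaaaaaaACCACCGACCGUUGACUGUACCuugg
Mir181b-1: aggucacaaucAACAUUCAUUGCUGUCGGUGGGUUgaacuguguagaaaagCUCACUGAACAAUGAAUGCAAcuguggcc
Mir181b-2: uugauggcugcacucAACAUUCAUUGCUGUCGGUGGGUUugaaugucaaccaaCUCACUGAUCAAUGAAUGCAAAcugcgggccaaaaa
Mir181d: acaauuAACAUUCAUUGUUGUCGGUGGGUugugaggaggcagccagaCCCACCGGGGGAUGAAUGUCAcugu

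The a genes shared an unbroken stretch of 28 nucleotides, which holds the whole 5p arm with 1 base before it and 4 after it, and the first difference after it was A28G, Mir181a-1 named first and counted from the start of the 5p arm. The b genes shared 26 nucleotides, with 2 bases before the arm and 0 after it, and differed at the next base by G25U, Mir181b-1 named first. The stretches are printed with the 5p arm in capitals to show how far they reach:
Mir181a-1 and Mir181a-2: gAACAUUCAACGCUGUCGGUGAGUuugg
Mir181b-1 and Mir181b-2: ucAACAUUCAUUGCUGUCGGUGGGUU

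A read that starts at the 5p arm and has the arm's annotated length is therefore the same from either a gene, and likewise from either b gene. The hairpins of all annotated miRNA genes, as GENCODE M21 gives them, were searched for windows of 22 nucleotides that occur in another annotated miRNA gene on either strand. The window at the start of the 5p arm was shared in 4 of 6 members, the a and b genes, and the window at the start of the 3p arm in 0 of 6. Every such window of Mir181c and Mir181d was found in no other miRNA gene. The rest of the genome was not searched.

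**Figure D3:**
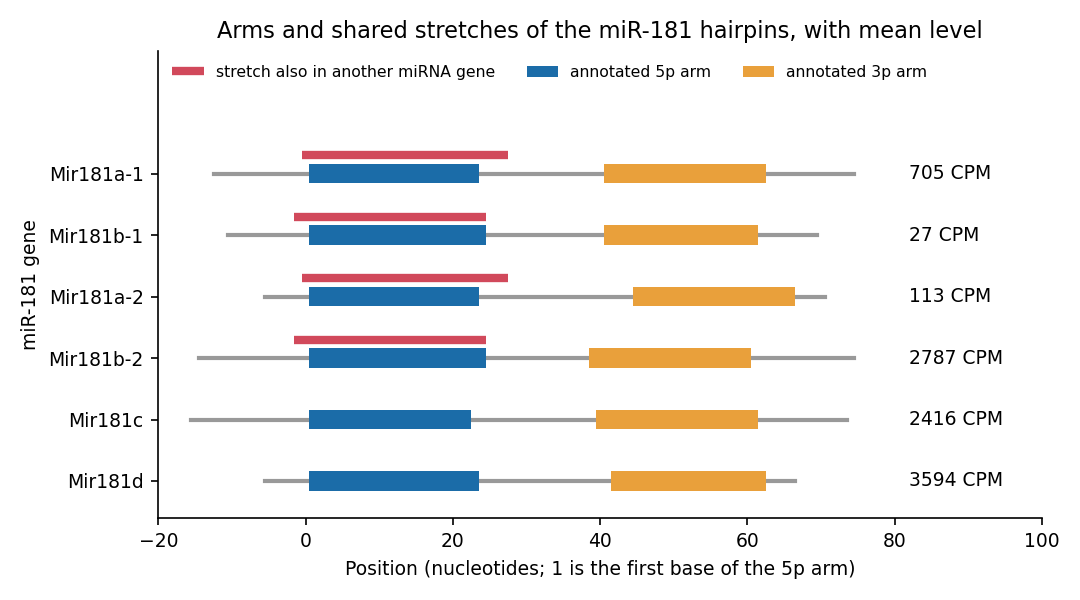
Hairpin of each miR-181 gene to scale in nucleotides, with position 1 at the first base of the 5p arm: 5p arm in blue, 3p arm in orange, the stretch that also occurs in another miRNA gene as a red bar, and the mean CPM at the right. The shared stretch covers the 5p arm of the 4 a and b genes and no 3p arm, while Mir181c and Mir181d have none.

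Genes with the same 5p arm had very different counts, from which reads that mapped to several places are missing. Mir181a-1 was 6.03-fold above Mir181a-2 in replicate 1 and 6.43-fold in replicate 2. Mir181b-2 was 103-fold above Mir181b-1 in replicate 1 and 105-fold in replicate 2. Of 25 other pairs with an identical annotated arm in which at least 1 gene had a mean of 2 CPM, 8 were more uneven than the a genes and 0 more than the b genes, whose absolute log2 ratio was 6.67. The largest ratio a pair could reach depended on the counts of its higher gene. Over both libraries these were 17119 for Mir181b-2, but 428 for Mir9-3 and 78 for Mir194-2. The pairs were not matched for depth, so the top place of the b genes is limited by this. The median of the other pairs was 2.05 (interquartile range 1.21 to 3.39). The most uneven of them was Mir219a-1 with Mir219a-2, at 6.34, and it also moved further between libraries than the b genes did. How many multimapping reads would belong to any miR-181 gene cannot be read from the counts, so the counts of the a and b genes are uncertain. The ratios between genes with the same 5p arm and between neighbours on chromosomes 1 and 2 share this uncertainty. Neither these ratios nor the comparison with Mir181c and Mir181d was tested for this effect.

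**Figure D4:**
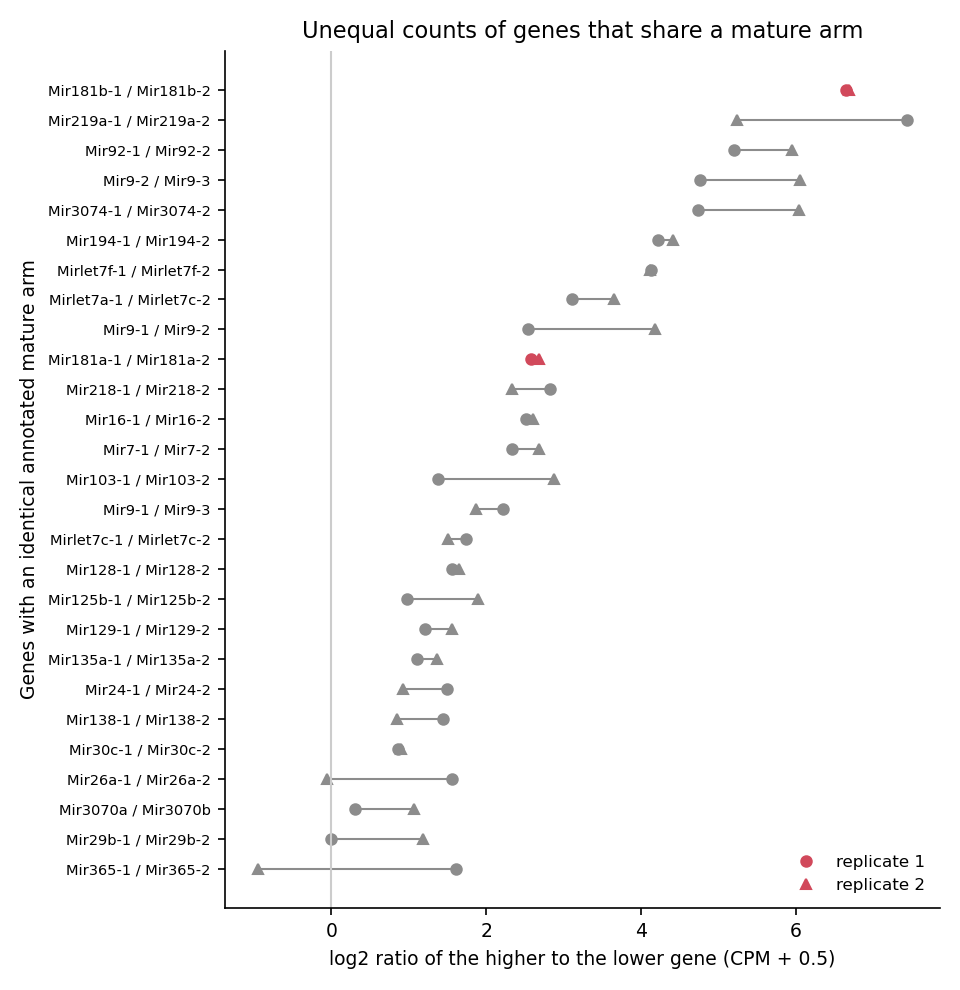
Pairs of miRNA genes with an identical annotated mature arm, ordered by the mean log2 ratio of the higher to the lower gene (CPM + 0.5), in replicate 1 (circles) and replicate 2 (triangles), joined by a line, with miR-181 pairs in red. The b genes stand at the top at 6.67 and the a genes at 2.63, each with both libraries close together.

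Levels of all genes with RefSeq mature arms were set beside the sharing of arms. Of 57 genes with some but not all arms shared, the class of the miR-181 a and b genes, 39 were detected, with a median of 84.0 CPM. Of 37 genes with every arm shared, a class with no miR-181 gene, 6 were detected, with a median of 297 CPM. Of 924 genes with no shared arm, the class of Mir181c and Mir181d, 336 were detected, with a median of 106 CPM. Within their class, Mir181b-2, Mir181a-1 and Mir181a-2 stood above the median and Mir181b-1 below it.

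The counts of each member in the libraries were also compared, by the exact binomial test (two-sided, given both library totals). Adjustment followed Benjamini-Hochberg over the 507 genes with at least 10 counts in sum. The test covers counting error and compares these libraries, not conditions. All 6 members were higher in replicate 2, as were 245 of the 507 tested genes. At an adjusted p of 0.05, 5 of 6 members passed. Of all tested genes 52.1% passed in either direction, 26.8% being higher in replicate 2 and 25.2% higher in replicate 1. Calls were more frequent among the 210 tested genes whose mean was at least 100 CPM, as it was for 5 of 6 members. Of these 210 genes 87.1% passed in either direction, and 47.1% both passed and were higher in replicate 2. Whether or not they passed, 110 of the 210 were higher in replicate 2. Mir181a-1 was higher by 0.55 on the log2 scale (adjusted p = 3.54e-35, exact binomial test), Mir181b-2 by 0.48 (adjusted p = 8.64e-105) and Mir181a-2 by 0.46 (adjusted p = 9.06e-05). For Mir181d the difference was 0.28 (adjusted p = 2.87e-46) and for Mir181c 0.08 (adjusted p = 0.00354). Mir181b-1 differed by 0.44 and did not pass (adjusted p = 0.0855, exact binomial test), having the fewest counts.

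The median log2 difference of the members was 0.45, beside -0.02 over all tested genes and 0.04 over these 210 genes. An edgeR exact test was also run with a common dispersion, which corresponds to a coefficient of variation of 0.377. In it 0 of 6 members passed, each at an adjusted p of 1, and 2 of 507 genes (0.394%) did. At an unadjusted p under 0.05 there were 0 of 6 members and 23 of 507 genes. The dispersion was estimated from the same 2 libraries that the test compares, so this outcome does not bear on whether the members differed. The differences of 5 of 6 members were beyond counting error, and with 1 library a side they could not be tested against replicate spread.

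**Figure D5:**
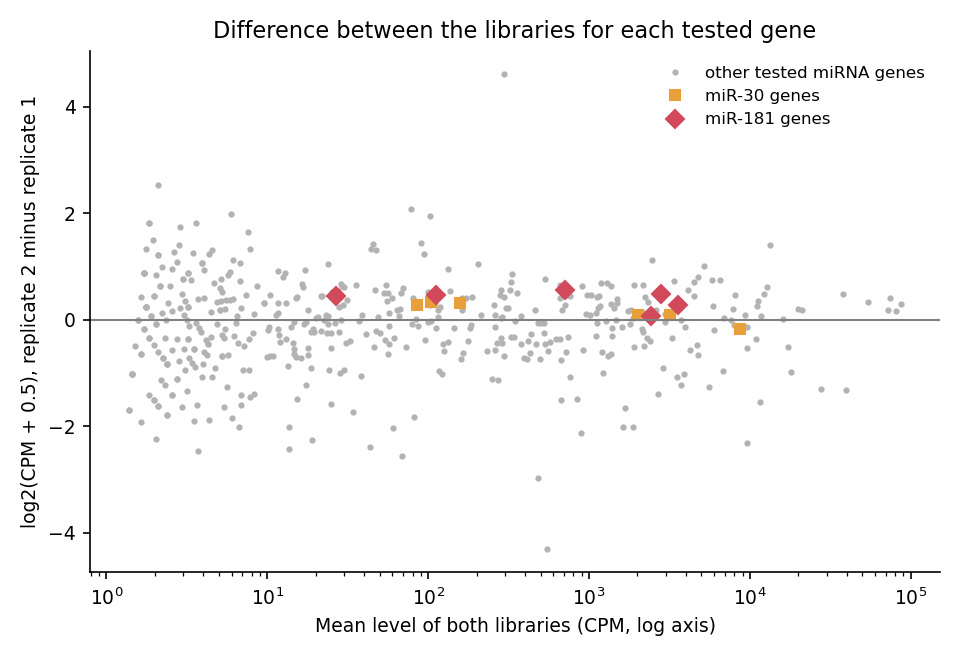
Difference between the libraries as log2(CPM + 0.5), replicate 2 minus replicate 1 (y axis), against mean CPM (x axis, log), for the 507 tested miRNA genes (grey), the miR-30 genes (squares) and the miR-181 genes (diamonds). The miR-181 genes lie between 0.08 and 0.55, all above the line at 0 and inside the cloud of other genes.

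Several measures of the libraries moved together with these differences. Reads assigned to miRNA genes were 27.5% in replicate 1 and 35.3% in replicate 2, and unmapped reads were 41.3% and 20.7%. With all reads as the denominator, every gene shifted by 0.36 on the log2 scale towards replicate 2, and the family was 1.59-fold rather than 1.24-fold higher there. The summed level of the 3 oligodendrocyte markers, all detected, was 4060 CPM in replicate 1 and 1247 CPM in replicate 2. Mir219a-2, at 3014 and 743 CPM, and Mir338, at 1029 and 485 CPM, were lower in replicate 2, but Mir219a-1 was at 16.9 and 19.2 CPM. The 3 choroid plexus and ciliated cell markers, all detected, summed to 1962 and 916 CPM. Each was lower in replicate 2, Mir34c most, at 857 and 109 CPM. The 13 neuronal markers summed to 30307 and 21126 CPM. Without Mir132, which was at 17266 and 5947 CPM, the other 12 summed to 13041 and 15179 CPM, a split chosen after seeing the data. These 12 did not all move the same way: Mir128-1 was at 4364 and 7285 CPM, but Mir138-1 at 5090 and 3431 CPM. The endothelial marker Mir126a was at 11308 and 7829 CPM, and the 4 lymphoid and myeloid markers, all detected, summed to 1081 and 1151 CPM. Most of that sum was Mir150, which was higher in replicate 2, as was Mir155, whereas Mir142 and Mir223 were lower. The part of all these measures in the higher miR-181 levels of replicate 2 was not tested.

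The miR-30 family, which also has 6 genes in 3 neighbouring pairs with 1 duplicated arm, was measured in the same way. It is a widely expressed family with its own seed, GUAAACA. Its genes summed to 14556 CPM in replicate 1 and 13910.4 CPM in replicate 2 (14233 ± 456 CPM), above the miR-181 family in both libraries. Each miR-30 pair was uneven: Mir30a minus Mir30c-2 was 4.46 and 4.25, Mir30e minus Mir30c-1 was 4.65 and 4.46, and Mir30b minus Mir30d was -6.63 and -6.13 on the log2 scale. No miR-30 pair was thus as even as Mir181c with Mir181d. The genes with an identical arm, Mir30c-1 and Mir30c-2, differed by -0.86 and -0.90, less than either the a or the b genes of miR-181. Mir30d, the highest at 8676 ± 738 CPM, was lower in replicate 2 by 0.17 on the log2 scale, whereas the other 5 miR-30 genes were higher there by 0.08 to 0.33.

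The genes whose levels over the 2 libraries lay closest to the median profile of the miR-181 members were Mir129-2, Mir1839, Mir3099, Mir671 and Mir29a, at Euclidean distances of 0.12 to 0.25 in log2(CPM + 0.5). Mir129-2 was at 1236 CPM in replicate 1 and 1514 CPM in replicate 2, and Mir671 at 1072 and 1667 CPM. The median profile lay between the levels of Mir181a-1 and Mir181c, so these genes were not at the level of any single member. Mir29a, at 1282 and 1254 CPM, was lower in replicate 2, unlike the members. With 2 libraries of 1 tissue, this likeness is mainly one of level to the members' median.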

How the data were processed

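MicroRNA sequencing of hippocampus in 1 group of 2 replicates was analysed. The deposited tables hold raw counts of reads per miRNA gene on mm10 with GENCODE M21, per the file headers of the accompanying text. Aligner, counter and trimming were not given in the sources used here. Per the labels, the libraries have a size range under 30. The tables have no header line, and the column of counts on the gene's strand was identified from its total. The 4 rows of reads given to no gene, including multimapping reads, held 72.5% of reads in replicate 1 and 64.7% in replicate 2 and entered neither library sizes nor tests.

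From the deposited counts, CPM, log2(CPM + 0.5), 95% Wilson intervals and exact binomial tests with Benjamini-Hochberg adjustment were computed in Python 3.11.15 with scipy 1.17.1. The calculation was tested on simulated data. The quasi-likelihood test of edgeR needs replicates on each side and was not used. Instead, edgeR 4.0.16 in R 4.3.3 gave an exact test with the common dispersion of an intercept-only design, estimated from the same libraries. A count of 0 allows up to 0.791 CPM in replicate 1 and 1.17 CPM in replicate 2, from 3 counts, for counting error only and not where reads map to several places. All 6 members matched RefSeq mature arms. The text names all members, the miR-30 genes, the 5 genes nearest the members' median profile and any gene with the members' 5p seed, of which there was none. Other genes, such as Mir219a-1, Mir219a-2 and markers, were named for a list or after their values were seen. Members and lists were chosen with earlier results of these data known. Alternatives were scalings (TMM, DESeq2 1.42.0 size factors, all reads, genes with no shared arm), pseudocounts, filters, strand column, window lengths, pair distances and leaving out a replicate.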

Additional observations from a re-analysis of the deposited data

How the results depend on the processing

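The order of the 6 members by mean level was the same by all reads, TMM, DESeq2 size factors and per nucleotide of hairpin. All reads, TMM and DESeq2 apply 1 factor to each library and cannot change the order within it. Under them only Mir181b-2 and Mir181c, whose order differed between the libraries, could have changed places, so the unchanged order says little about stability. With all reads as the denominator, the family level was 3068 rather than 9641 CPM, and that of miR-30 was 4457 rather than 14233 CPM. With the column ignoring strand, the miR-30 level was 12990.3 CPM, while the counts of the members were identical. A pseudocount of 5 CPM moved Mir181a-1 minus Mir181b-1 from 4.68 to 4.47 and Mir181a-2 minus Mir181b-2 from -4.62 to -4.57. By the edgeR exact test, 0 rather than 5 members passed, but its dispersion came from the same 2 libraries, so the 0 does not bear on stability. Under 6 other settings, among them scaling over genes with no shared arm, chosen after seeing the data, the number stayed at 5. Leaving out each replicate gave family levels from 8612 to 10671 CPM. The ranges were 4.63 to 4.74 for Mir181a-1 minus Mir181b-1, -4.63 to -4.61 for Mir181a-2 minus Mir181b-2 and -0.67 to -0.46 for Mir181c minus Mir181d. TMM, DESeq2 and the scaling over genes with no shared arm shifted the difference between libraries by at most 0.02 on the log2 scale, and all reads as the denominator by 0.36. No paired analysis was possible because the series has 1 group. Depth limits Mir181b-1 most, with 86 and 79 counts, and 2 libraries give an SD of low precision.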
